A study of Drosophila melanogaster with 6 samples.

Results

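The genes described here encode signalling protein kinases and their close partners, 57 genes chosen by name from the 18358 annotated genes of the dm6 build. They cover the mitogen-activated protein (MAP) kinase cascades, receptor kinases, the cAMP-dependent and C-type kinases (PKA and PKC), casein kinases 1 and 2 (CK1 and CK2), Ste20 kinases and others. All 57 were found, 56 of them under the listed symbol and phl as Raf. The list also holds genes whose products are not kinases: cos encodes a kinesin-like scaffold of the Hedgehog pathway, and Pka-R1, Pka-R2 and CkIIbeta encode regulatory subunits.

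The series maps Cyclin G, a cyclin with a role in transcription, along the genome by ChIP-seq, in which DNA that is precipitated with a protein is sequenced. It used wing imaginal discs of female larvae in the third instar, raised at 25 °C, which carried UAS-Myc-CycGΔP under da-Gal4, a ubiquitous driver, so that the protein read by the anti-Myc antibody was a tagged, mildly over-expressed form without its PEST domain, in addition to endogenous Cyclin G. There were 2 ChIP replicates of these discs and 2 inputs of the same chromatin, and the controls were 1 mock ChIP and 1 input from da-Gal4/+ discs, which carry the driver without the tagged protein. Each ChIP of the Myc-CycGΔP discs used 600 discs, 1 per larva. The data are 1 list of 3363 peaks that the authors joined from both Myc-CycGΔP replicates. The list gives positions only, so no value below has a replicate error, a height or a read count. The authors called the peaks of each replicate over its input, and beyond that the inputs enter no value here. The mock ChIP and its input enter none.

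Protein kinases pass signals by adding phosphate to other proteins, often in relays in which 1 kinase activates the next. Receptor kinases sit in the cell membrane and bind ligands such as EGF-like, FGF-like or BMP proteins, the MAP kinases carry the signal on to the nucleus, and CK1, CK2, PKA and the GSK3 kinase sgg act on many substrates. In the wing disc, these pathways are known for growth, vein patterning, cell polarity and survival.

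A transcription start site (TSS) was called covered when it lay inside a peak, and a gene was called body-only when a peak overlapped it by at least 1 bp without reaching any annotated start. Of the 57 genes, 14 had a covered TSS (24.6%, 95% Wilson interval 15.2 to 37.1%). Among all 13986 protein-coding genes, 795 did, which is 5.68% (5.61% without the kinase genes). None of the 57 was body-only, against 1.89% of protein-coding genes (265 genes), and 43 had no peak. The share of genes with any peak was thus the same 14 of 57, against 7.58%. The share of covered kinase genes lay above the background share, whose value is below the interval. The members were chosen with earlier results of these data known, so this difference is described and not tested. The intervals cover counting error over genes only. With peaks narrower than the median of all peaks (365 bp) left out, 5 of the 57 genes were covered, against 1.95% of protein-coding genes.

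**Figure D1:**
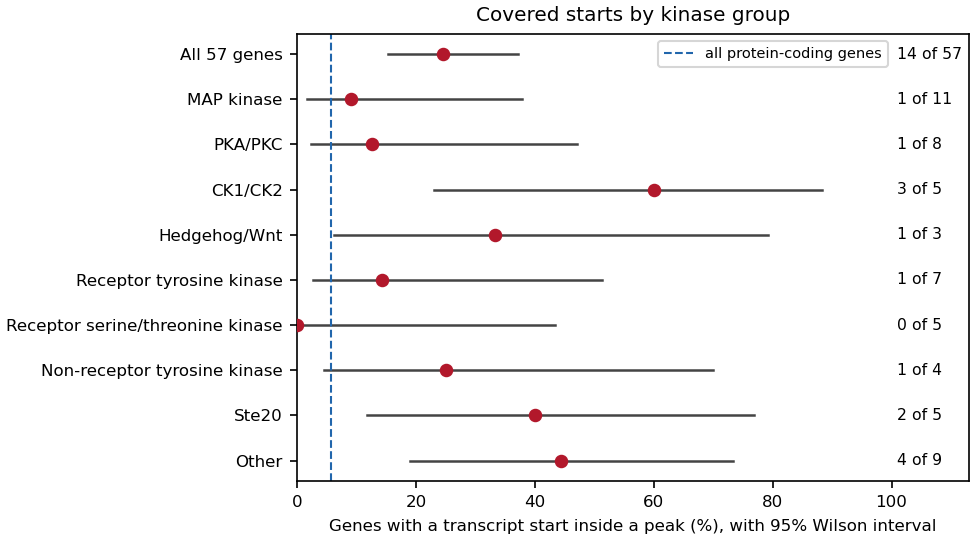
Share of genes with a transcript start inside a peak (x axis, percent) in each kinase group (y axis), with 95% Wilson intervals as lines, the counts at the right and the share of all protein-coding genes as a dashed line. The point of all 57 genes lies at 24.6% against 5.68%, CK1/CK2 has 3 of 5 genes, and the receptor serine/threonine kinases have 0 of 5.

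Covered genes were found in every group but the receptor serine/threonine kinases. CK1/CK2 had 3 of 5 genes (interval 23.1 to 88.2%), the Ste20 kinases 2 of 5 (interval 11.8 to 76.9%) and the mixed group of other kinases 4 of 9 (interval 18.9 to 73.3%). The MAP kinase group had 1 of 11 (interval 1.62 to 37.7%) and PKA/PKC 1 of 8 (interval 2.24 to 47.1%). Receptor kinases of both kinds together had 1 of 12 (8.33%, interval 1.49 to 35.4%). The share of all protein-coding genes, 5.68%, lies inside the intervals of the MAP kinase, PKA/PKC and receptor groups. It also lies inside that of the non-receptor tyrosine kinases (1 of 4, interval 4.56 to 69.9%). It lies below those of the CK1/CK2, Ste20, Hedgehog/Wnt and other kinases, a difference that was not tested. For Hedgehog/Wnt this rests on 1 covered gene of 3 (interval 6.15 to 79.2%). The intervals of the groups are wide and all of them overlap, so an order of the groups is not given.

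The promoters below are shown because they carry the peaks that the following results turn on: a gene with a single start (Pka-C1, Abl), an inner promoter (CkIIalpha), the first of many promoters (sgg), a receptor (Pvr), a Ste20 kinase (msn), an alternative first exon (mnb) and a promoter shared with a ribosomal protein gene (Rok). Each run is the dm6 reference sequence on the strand of the gene, read 5′ to 3′ from 100 bases before the covered start, and the start base is followed by the last 24 bases. Capitals mark matches to the letters TATCGATA (DRE, the DNA replication-related element), TCAGT where it lies within 10 bp of the start (initiator), CGATA on either strand, and the core promoter element Motif 1.
Pka-C1, chr2L:9699273-9699397, minus strand: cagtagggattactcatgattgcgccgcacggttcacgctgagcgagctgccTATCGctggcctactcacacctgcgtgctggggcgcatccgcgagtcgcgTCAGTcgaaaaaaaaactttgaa
CkIIalpha, chr3L:23099540-23099664, plus strand: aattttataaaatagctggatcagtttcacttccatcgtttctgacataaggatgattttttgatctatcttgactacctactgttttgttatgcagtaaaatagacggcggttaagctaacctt
sgg, chrX:2633852-2633976, plus strand: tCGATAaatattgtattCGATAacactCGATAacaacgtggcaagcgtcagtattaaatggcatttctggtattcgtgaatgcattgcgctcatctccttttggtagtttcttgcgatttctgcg
Pvr, chr2L:8239854-8239978, minus strand: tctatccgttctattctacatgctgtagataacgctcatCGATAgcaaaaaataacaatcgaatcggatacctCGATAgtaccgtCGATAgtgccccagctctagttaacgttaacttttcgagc
Abl, chr3L:16647858-16647982, minus strand: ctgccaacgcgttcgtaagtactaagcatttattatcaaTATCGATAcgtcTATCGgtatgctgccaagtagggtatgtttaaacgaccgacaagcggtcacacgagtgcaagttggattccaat
msn, chr3L:2586516-2586640, minus strand: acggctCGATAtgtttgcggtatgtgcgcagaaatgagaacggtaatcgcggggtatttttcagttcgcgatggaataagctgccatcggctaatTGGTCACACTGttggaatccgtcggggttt
mnb, chrX:17887198-17887322, minus strand: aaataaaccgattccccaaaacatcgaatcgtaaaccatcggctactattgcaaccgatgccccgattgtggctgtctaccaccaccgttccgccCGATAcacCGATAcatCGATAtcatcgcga
Rok, chrX:16637390-16637514, minus strand: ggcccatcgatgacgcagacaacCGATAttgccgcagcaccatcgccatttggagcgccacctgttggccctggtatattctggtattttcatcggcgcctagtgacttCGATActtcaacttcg
The capitals in Pka-C1 are TATCG, which is CGATA on the other strand, and the initiator TCAGT just after the start. Those in sgg, Pvr, mnb and Rok are CGATA alone, those in Abl are the DRE with TATCG beyond it, and those in msn are CGATA and, around the start, Motif 1. The CkIIalpha run has no capitals. The letters TCAGT farther from the start, as in CkIIalpha, sgg and msn, were not counted as an initiator and are in lower case.

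The MAP kinase group leaves out nmo (Nemo-like kinase) and the Ste20 kinases that act above JNK, which are described below. Of the 11 genes placed in it, the terminal kinase of the Ras pathway was the covered one. rl (FBgn0003256, the ERK kinase, plus strand, 54.5 kb long) had a peak at chr2R:1071791-1072050. It lay over the inner of its 2 start clusters, at 1071975, from which 6 of its 7 transcripts begin. The upstream start, 513 bp away, was 329 bp outside the peak and gives 1 transcript. The kinases above rl in the relay, Dsor1 (MEK) and phl (Raf), and their scaffold ksr had no peak. Their nearest starts lay 35444, 24455 and 107555 bp from one. No gene of the JNK relay (Tak1, slpr, hep, bsk) and no p38 gene (lic, p38a, p38b) had a peak, with distances of 7348 bp at Tak1 to 121185 bp at hep.

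Among PKA and PKC genes, the covered one was Pka-C1 (FBgn0000273, minus strand), the catalytic subunit of the cAMP-dependent kinase. Its peak, chr2L:9699166-9699518, covered the single start from which all 3 transcripts begin. The regulatory subunit genes Pka-R1 and Pka-R2 had no peak, and their nearest starts lay 17414 and 36812 bp from one. The PKC genes aPKC, Pkc53E, inaC and Pkc98E and the PKC-related kinase gene Pkn, with up to 6 start clusters each, had none either, at 18029 to 199967 bp.

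Both subunits of casein kinase 2 were covered. The peak of CkIIalpha (FBgn0264492, the catalytic subunit, plus strand), chr3L:23099457-23099739, lay on cluster 3 of 5, 2568 bp inside the first start, and this cluster gives 3 of the 7 transcripts while each of the others gives 1. The peak of CkIIbeta (FBgn0000259, the regulatory subunit, plus strand), chrX:11792342-11792737, covered the first and second of 3 clusters, with 4 of its 10 transcripts. Cluster 3 of CkIIbeta, with 6 transcripts, lay 142 bp outside the peak. CkIalpha (FBgn0015024, casein kinase 1 alpha, plus strand) had a peak at chrX:12653624-12653888 over the first and second of its 5 clusters, with 3 of 6 transcripts. The first of these starts lay only 2 bp inside the peak, the closest call among the covered starts, and the second 88 bp inside. The other CK1 genes, dco and gish, had no peak, and their nearest starts lay 14557 and 11669 bp from one.

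Of the kinases of Hedgehog and Wnt signalling, sgg (FBgn0003371, GSK3, plus strand) was covered. It has the most start clusters of all members, 10 over 33858 bp. The peak chrX:2633809-2634068 lay on the first, which gives 6 of 19 transcripts, and the next start was 147 bp outside it. fu, the kinase that acts downstream of Smoothened, had its nearest peak at 4478 bp. The closest miss in the list was cos, whose start lay 61 bp outside a peak (chr2R:7387176-7387459). That peak covered 2 starts of Dhx15, which is transcribed in the opposite direction from a point 209 bp away, and its centre was at -6.5 bp from that Dhx15 start, upstream.

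Of the 12 receptor genes, Pvr (FBgn0032006, the receptor of PDGF- and VEGF-related factors, minus strand) was covered. Its peak, chr2L:8239836-8240209, lay on the first of 3 clusters, which gives 11 of 13 transcripts, the largest number at any covered start. The receptors Egfr, htl, btl, Alk, sev and tor had no peak, with the nearest peak at 8830 bp (htl) and the farthest at 228540 bp (Egfr). None of the BMP and Activin receptor genes put, tkv, sax, babo and wit had one, at 67198 bp (wit) to 166310 bp (tkv). A count of 0 of 5 allows a share of up to 43.4% (Wilson), which includes the 5.68% of all protein-coding genes. tkv, the main Dpp receptor of the wing, has 4 start clusters, none of them covered.

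Among non-receptor tyrosine kinases, Abl (FBgn0000017, the Abelson kinase, minus strand) had a peak at chr3L:16647816-16648155 over the single start of its 10 transcripts. Src42A and Src64B were the members farthest from any peak, at 279658 and 282963 bp, and hop, the Janus kinase, was 49379 bp away.

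The Ste20 genes with a covered start were msn and hppy, which encode MAP4 kinases that act above JNK and Warts. The peak of msn (FBgn0010909, minus strand), chr3L:2586450-2586765, covered the start of 7 of 8 transcripts, and the other start, 286 bp downstream, was outside. The peak of hppy (FBgn0263395, plus strand), chr2R:19178550-19178823, covered the single start of its 5 transcripts. Pak, mbt and Tao had no peak, at 52192, 26571 and 58490 bp, and the peak nearest to mbt was that of Rok.

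In the remaining group, mnb, nmo, Lk6 and Rok were covered. mnb (FBgn0259168, the orthologue of DYRK1A, minus strand) had a 565 bp peak, chrX:17887125-17887689, on the first of 2 clusters that lie 12182 bp apart, with 3 of 5 transcripts. nmo (FBgn0011817, Nemo-like kinase, plus strand), the longest covered gene at 75.1 kb, had a peak at chr3L:7978694-7979094 on the single start of its 8 transcripts. Lk6 (FBgn0017581, which phosphorylates eIF4E, minus strand) had a peak at chr3R:11764409-11764765 on the first of its 2 starts, each with 1 transcript, 4378 bp apart. par-1, Doa, Gcn2, PEK and AMPKalpha had no peak, and their nearest starts lay between 13773 bp (AMPKalpha) and 91245 bp (PEK) from one.

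The peak of Rok (FBgn0026181, a kinase that acts on myosin regulation, minus strand), chrX:16637256-16638009, was the widest at 754 bp and the single one that held the start of another gene. It covered the first of 2 Rok clusters, with 3 of 4 transcripts, and the start of RpS19a, a ribosomal protein gene on the other strand 480 bp away. The centre of the peak lay at -218.5 bp from the Rok start and at -261.5 bp from the RpS19a start, upstream of each gene. The list gives 1 interval and no summit, so the signal of the pair cannot be told apart. Without this peak, 13 of the 57 genes were covered.

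**Figure D2:**
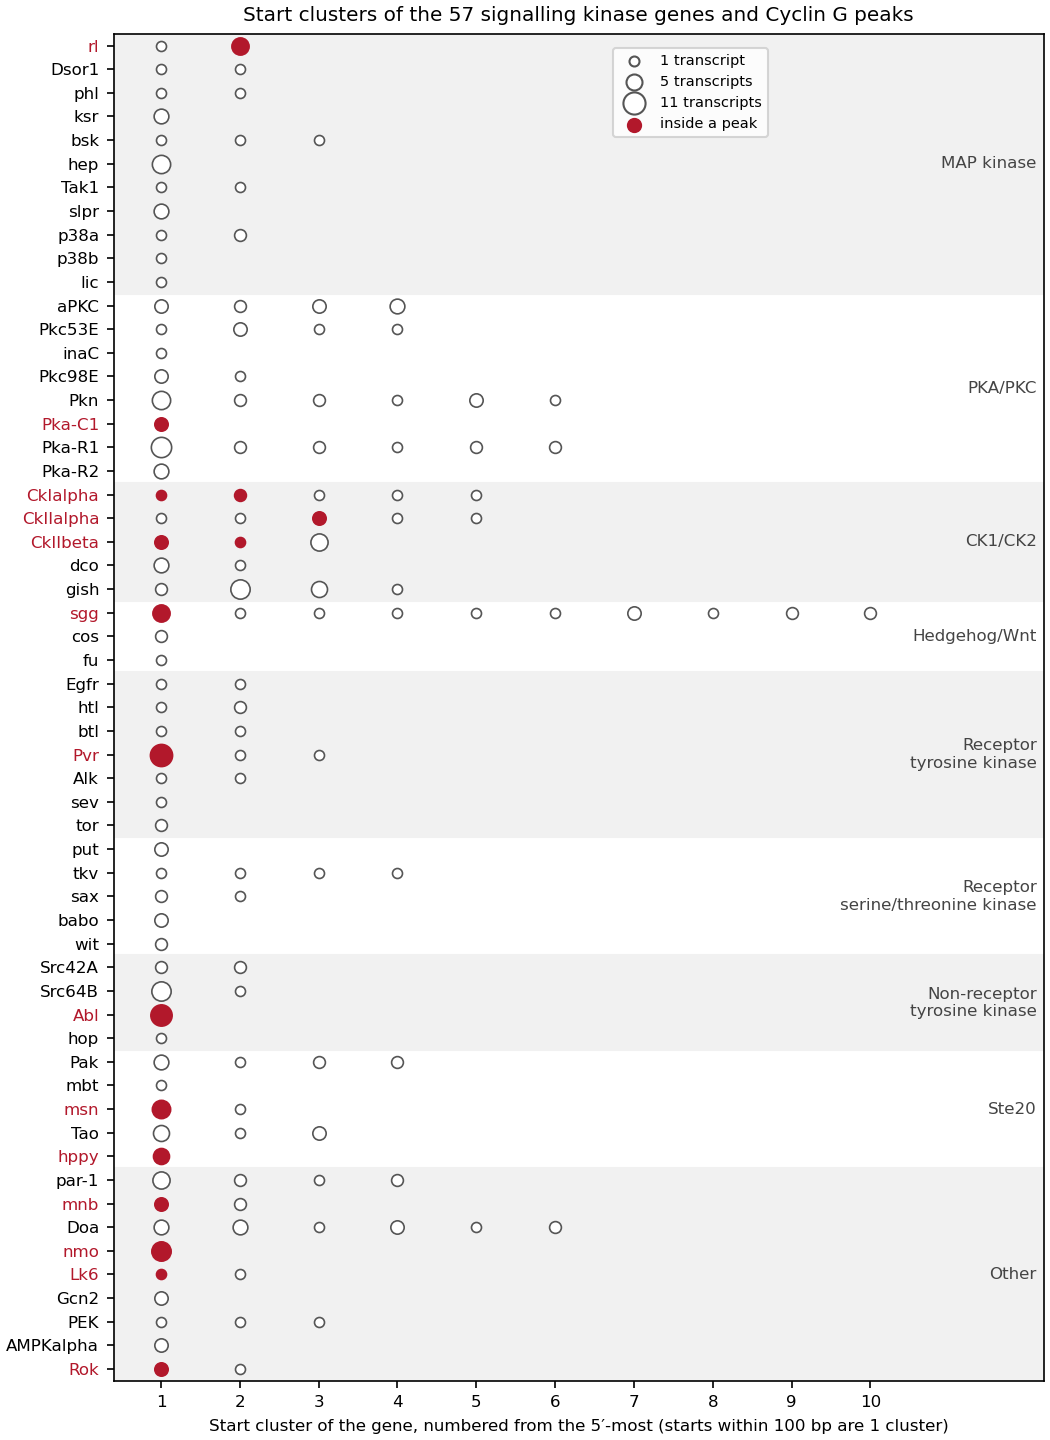
Start clusters (x axis, numbered from the 5′-most) of each of the 57 genes (y axis, shaded by kinase group), where the area of a circle grows with the number of annotated transcripts and red circles are inside a peak. Red circles mark 16 of 135 clusters, mostly in the first column, with rl and CkIIalpha as the genes covered at an inner cluster alone.

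Alternative promoters were common in these genes, and most of them lay outside peaks. Starts within 100 bp of each other were merged into 1 cluster, and 16 of the 135 clusters of the 57 genes were covered. This share was above the 4.32% of the clusters of all protein-coding genes (819 of 18964), a difference that was not tested. Of the 14 covered genes, 4 had 1 cluster (Pka-C1, Abl, hppy and nmo) and 10 had several. In none of these 10 were all clusters covered, and in 8 of them a single cluster was. The exceptions were CkIalpha and CkIIbeta, whose paired clusters lie under 1 peak. Among all covered protein-coding genes with several clusters, 90.7% had a single covered one. The 5′-most cluster was covered in 8 of the 10 genes, and the background share was 82.5% (212 of 257), so the position of the covered promoter was close to that of other genes. These counts depend on the merging distance. Uncovered starts of CkIIbeta, CkIalpha, sgg and msn lay 142, 147, 147 and 196 bp outside a peak. With starts within 300 bp merged, 14 of 122 clusters were covered, and 6 genes with several clusters were covered at the 5′-most. The starts of msn and those of CkIIbeta then form 1 covered cluster each.

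The covered cluster was usually the one with most annotated transcripts, as in covered genes in general. In 9 of the 10 genes the clusters differed in their number of transcripts, and in 8 of these 9 a covered cluster gave the most, CkIIbeta being the exception. The background share was 79.3% (149 of 188 genes), so the count was close to that of other covered genes. Over the 14 covered genes, 73 of 107 transcripts (68.2%) began at a covered start, a share that was not counted for other genes. The number of annotated transcripts is not a measure of use in the wing disc, and which of these promoters are active there was not measured by the list.

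Whether the choice of promoter touches the protein was read from the annotated start of the coding sequence. In 6 of the 10 genes (rl, CkIalpha, CkIIalpha, CkIIbeta, Pvr and msn), every coding start of the uncovered transcripts was also used by a covered one. In sgg, 1 coding start was shared and 5 belonged to uncovered transcripts alone. In mnb, Lk6 and Rok, covered and uncovered transcripts shared none, so that the transcripts of the covered promoter had an annotated coding start of their own. The same was not counted over all covered protein-coding genes, so these counts do not set the kinase genes apart.

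The kinase genes are long and have many starts, which are features that go with coverage in general. Their median length was 10458 bp against 2162.5 bp for all protein-coding genes, and their median number of start clusters was 2 against 1. With 1 cluster, 4 of 22 kinase genes were covered (18.2%) against 5.03% of protein-coding genes. With 2 clusters it was 5 of 18 (27.8%) against 6.62%, with 3 clusters 2 of 5 against 10.2%, and with 4 or more 3 of 12 (25.0%) against 11.2%. The share of kinase genes was the higher one in each class.

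By length, the kinase and background shares were further apart in long genes, a difference that was not tested. Under 5 kb, 1 of 13 kinase genes (7.69%) was covered against 4.61%, and from 5 to under 10 kb 2 of 14 (14.3%) against 8.29%. From 10 to under 30 kb it was 5 of 15 (33.3%, interval 15.2 to 58.3%) against 9.81%, and at 30 kb or more 6 of 15 (interval 19.8 to 64.3%) against 8.49%. The median length was 21712.5 bp in the 14 covered genes and 7769 bp in the 43 others, while in all protein-coding genes it was 3328 bp with and 2129 bp without a covered start.

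**Figure D3:**
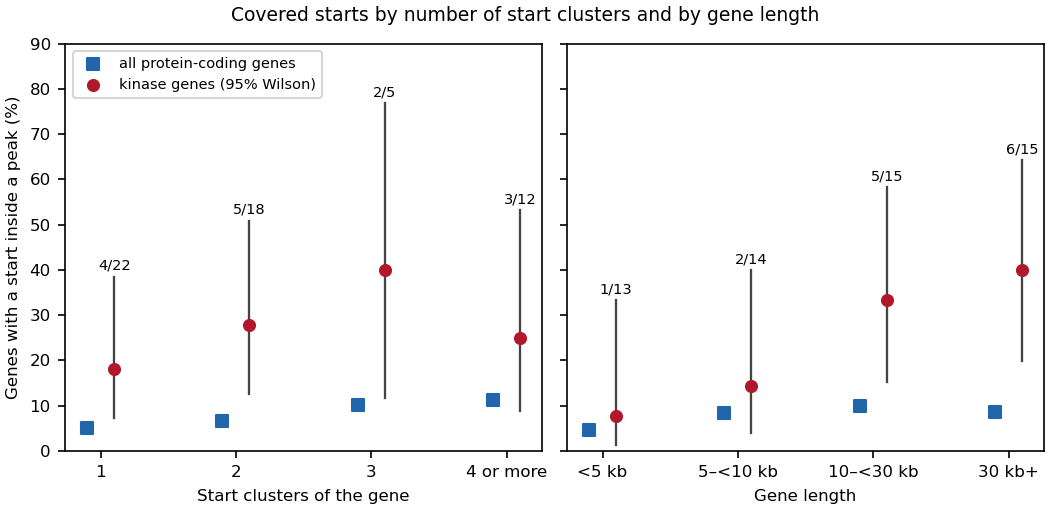
Share of genes with a start inside a peak (y axis, percent) by number of start clusters (left) and gene length (right), for the kinase genes (circles, 95% Wilson interval as lines, counts above) and all protein-coding genes (squares). The circles lie above the squares in every class, a difference that was not tested, and the class of 3 clusters holds 5 kinase genes.

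By chromosome arm, 4 of 8 kinase genes were covered on 3L (50.0%, interval 21.5 to 78.5%), where 3.87% of protein-coding genes were covered, and 2 of 5 on 2L, against 7.45%. On X it was 5 of 17 (29.4%, interval 13.3 to 53.1%) against 7.88%. On 2R it was 2 of 15 (13.3%, interval 3.74 to 37.9%) against 4.52%, and on 3R 1 of 12 (8.33%) against 4.44%. The intervals of the arms overlap, and none of the genes lies on chromosome 4 or Y.

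The 14 peaks at kinase starts were narrow and in single-copy sequence. Their widths ran from 260 to 754 bp around a median of 346.5 bp, and the 614 peaks at starts of any protein-coding gene had a median of 312.5 bp. All 75 bp words, the read length, that start in the 14 peaks occur once in the genome, and 565 of the 614 peaks had at least 90% of such words. The median GC content was 40.9% (27.7% at rl to 48.2% at hppy) against 38.8%, and 1.51 to 39.6% of each peak was repeat-masked, against a median of 17.2%.

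The peaks sat just upstream of the start. The centre lay upstream of the nearest covered start in 13 of 14 peaks, the median distance being -61 bp (quartiles -141 and -44.25 bp), and in 556 of the 614, where it was -67.25 bp. The farthest centres were those of Rok at -218.5 bp, mnb at -185 bp and nmo at -152 bp. CkIIbeta was the single one with its centre downstream, at 6.5 bp, and sgg followed at -13.5 bp. Downstream of the start, the peaks ended after 42 bp (Pvr) to 204 bp (CkIIbeta), so none reached far into a gene body.

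**Figure D4:**
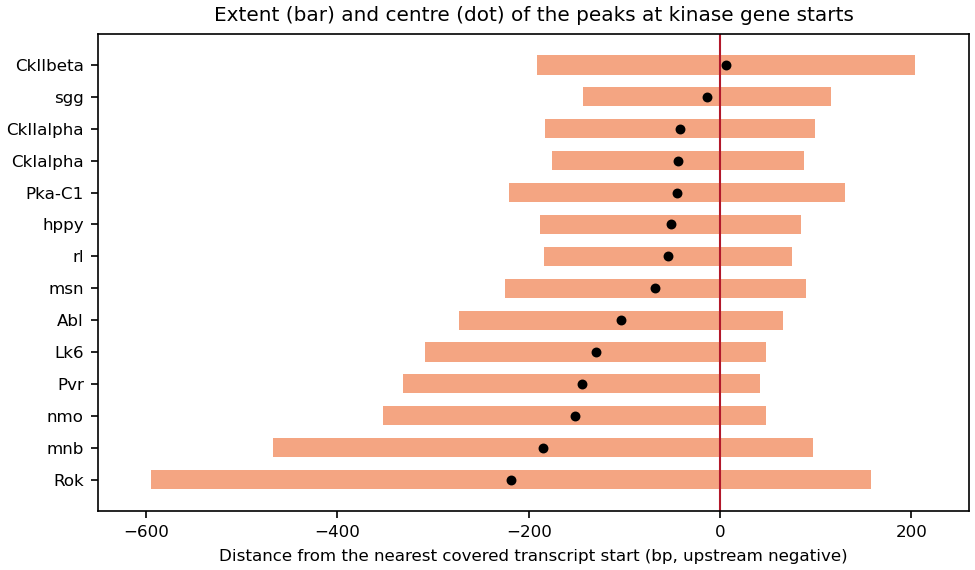
Extent (bars) and centre (dots) of the 14 peaks (y axis, by gene) relative to the nearest covered transcript start (x axis, bp on the strand of the gene, upstream negative, line at the start). Of the 14 dots, 13 lie upstream, from -218.5 bp at Rok to -13.5 bp at sgg, and the bars end 42 to 204 bp downstream.

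Peaks inside gene bodies were found in 2 of the 57 genes, both already covered at a start, and both in mobile elements. How often this occurs over all protein-coding genes was not counted, so it is not described as particular to the kinase genes. The second peak of rl, chr2R:1082660-1083072 (413 bp), lay in an intron, 11404 bp from the first start, inside an annotated copy of the Doc retrotransposon. The second peak of Abl, chr3L:16619172-16619329 (158 bp), lay past the last coding base, in the final exon (3′ untranslated region) of 2 of the 10 transcripts, inside an annotated LTR retrotransposon. Both were wholly repeat-masked, and none of their 75 bp words occurs once in the genome, so reads there could come from other copies. At the start of rl, by contrast, all words were unique.

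The 43 genes without a covered start were not close to peaks in general. The median distance from their nearest start to a peak was 49379 bp (quartiles 17280 and 108753 bp), and for all protein-coding genes without a covered start it was 41258 bp (quartiles 15864 and 89743 bp). Within 10000 bp of a peak lay 5 of the 43, which were cos (61 bp), fu (4478 bp), Tak1 (7348 bp), htl (8830 bp) and sev (9705 bp). The peak nearest to fu covered a start of Ing3 and that nearest to sev a start of CG42249 (4.12% of its words unique), while the one nearest to htl lay outside genes in wholly repeat-masked sequence.

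**Figure D5:**
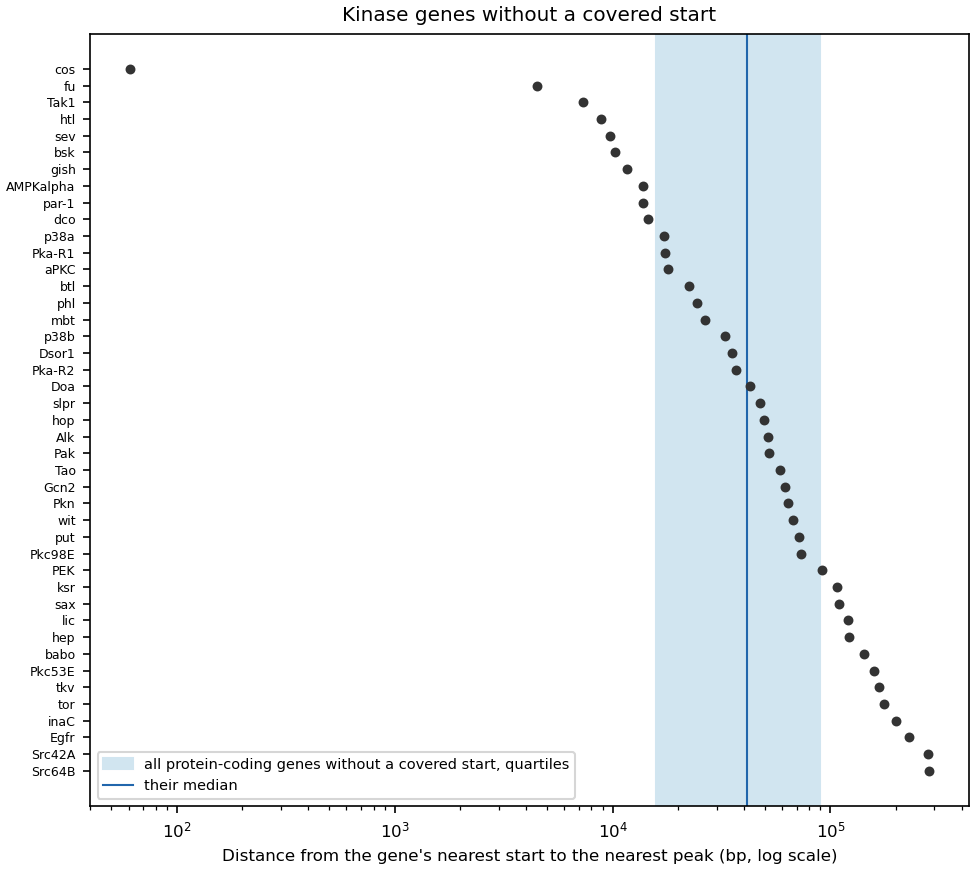
Distance from the nearest start to the nearest peak (x axis, bp, log scale) for the 43 kinase genes without a covered start (y axis), with the quartiles and median of all protein-coding genes without a covered start as a band and a line. Except for cos at 61 bp, all lie at 4478 bp or more, and 31 of the 43 are within 100000 bp.

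The promoter letters were compared as a description. Within 100 bp on each side of 1 start per gene (a covered start where there was one, otherwise the 5′-most), the DRE, TATCGATA, was found in 2 of 14 covered kinase genes (Abl and hppy) and in 8 of the 43 others, among them the BMP receptor genes tkv and sax. Over all protein-coding promoters of that length it was in 7.82%, with 15.6% among covered genes. Motif 1 was found in 1 covered gene (msn, from 5 bases before to 5 after the start) and 5 others. Its share was 3.95% of all promoters and 8.55% of covered ones. The GAGA element, GAGAG, was found in 2 covered genes (nmo and hppy) and 13 others, against 22.5% of all and 21.1% of covered promoters. The E-box, CACGTG, was found in 0 and 2, against 2.87 and 3.77%. On the strand of the gene, the initiator TCAGT within 10 bp of the start was found in 1 covered gene (Pka-C1). It was also found in 5 others, all of them receptor genes (Alk, htl, put, sev and tor). Its share was 12.1% of all promoters and 2.89% of covered ones. The TATA box, TATAAA, 40 to 20 bp upstream, was found in none of the 57, against 7.05% of all and 8.93% of covered promoters.

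The 5-base word CGATA, which the insulator protein BEAF-32 is known to bind and which is part of the DRE, was counted after the promoter letters had been seen. On either strand it was found in 10 of the 14 covered kinase promoters and in 25 of the 43 others, against 39.4% of all protein-coding promoters, 60.8% of the covered and 38.1% of the uncovered ones. At least 2 matches were found in 8 of the 14 and 17 of the 43, against 38.7% of all covered and 17.9% of all uncovered promoters. A single DRE holds the word on both strands and counts as 2 matches, so these are not always separate sites. nmo had 4 matches, the most of the covered genes, and rl, CkIalpha, CkIIalpha and Lk6 had none. The word was thus common in kinase promoters with and without a peak.

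The partners of the kinases in the same pathways were read from a list of 112 genes. Of these, 13 had a covered start (11.6%, interval 6.91 to 18.9%), against 5.68% of protein-coding genes, and 5 were body-only. In the Ras/ERK pathway 4 of 30 were covered: the exchange factor gene Sos, csw (a SHP2-type phosphatase), Cbl (a ubiquitin ligase that acts on receptors) and cic (the repressor Capicua). In the JNK and p38 pathways it was 1 of 14, Jra (the Jun protein), in the Hedgehog and Wnt pathways 1 of 24, arr (a Wnt co-receptor), and in the BMP and Activin pathways 0 of 14. In JAK/STAT signalling 3 of 10 were covered, namely the receptor gene dome and the inhibitor genes Socs36E and Socs16D, while the kinase gene hop was not.

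Among partners of PKA, PKC, CK2, AMPK and related kinases, 3 of 16 were covered. These included SNF4Agamma (the gamma subunit of the AMP-activated kinase, at cluster 3 of 9) and baz (a Par complex protein). Lk6 and its substrate gene eIF4E1 were both covered, and eIF4E1 was 1 of 4 genes listed as targets of translation kinases. None of the 26 genes listed as ligands alone had a covered start, and vn and Wnt6 were body-only. The upper Wilson limit for the ligands is 12.9%, above the 5.68% of all protein-coding genes, so the count does not set them apart. The peak in vn covered the start of mad2. The other body-only partners, Pka-C3, rut (an adenylyl cyclase) and rg (an anchor of PKA), and Wnt6 had peaks without any word that occurs once. All words in the peaks at the 13 covered partner starts were unique.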

How the data were processed

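ChIP-seq libraries were 2 Myc-CycGΔP ChIP replicates, 2 inputs of the same chromatin, 1 mock ChIP and 1 mock input. The authors removed reads of low quality, mapped the rest with Bowtie2 2.1.0 (build dm6) and called peaks in each ChIP over its input with MACS2 2.1.0, versions as in the submitters' processing notes. Reproducible peaks of both replicates were retained by the irreproducible discovery rate and fused with bedtools. The deposited list holds 3 columns (sequence, start from 0, end) for 3363 peaks, with no score, count or depth, so precision is counting error over genes. Libraries of the Myc-CycGΔP discs used 38 ng of DNA and 75 bp reads, and mock libraries 5 ng and 50 bp, and the mock is not used here.

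Genes, transcripts and mobile elements came from Ensembl release 115 (FlyBase annotation 6.54), and phl was found through the RefSeq synonym table. The study used an earlier release of the same build, whose starts may differ. Sequence, repeat masking and 75 bp words came from the RefSeq copy of the build. Coordinates count from 1. A peak was unique when at least 90% of its words occurred once, counted on both strands, and direct search of 40 words gave 0 disagreements. Starts within 100 bp were merged into clusters. The word CGATA was added after the promoter letters were seen. Intervals are 95% Wilson intervals. No test was run, since the members and lists were chosen with earlier results of these data known. All 57 members are named, and 1 covered partner gene is not reported here by name. The scoring was tested on simulated data. Python 3.11.15, numpy 2.4.6 and matplotlib 3.10.9 were used. Alternatives covered the distance to a peak, the starts read, peak width, repeats, uniqueness and the merging of starts.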

Additional observations from a re-analysis of the deposited data

How the results depend on the processing

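Of 54 alternatives over 8 results, 47 left the count within 1.5 times its value (or the median within 1 SD) and 7 did not. A restriction to peaks at or above the median width of all peaks, 365 bp, left 5 of the 14 covered kinase genes (CkIIbeta, Pvr, mnb, nmo and Rok). It gave 6 covered start clusters, 4 genes covered at the 5′-most of several clusters and 1 body-only gene. The same restriction left 273 covered protein-coding genes (1.95%) and 3 covered partner genes. Whether width follows peak strength was not tested, since the list holds no heights. Peaks at protein-coding starts had a median width of 312.5 bp (quartiles 270 and 368 bp), so this cutoff removed most of them. These counts therefore do not show what a stricter call would keep. With the 5′-most start alone, rl and CkIIalpha lost their covered start, which made 2 body-only genes, and 12 kinase genes stayed covered. With starts within 100 or 500 bp of a peak, cos was added, for 15 genes against 6.51 and 7.26% of protein-coding genes. With unique peaks, 14 kinase genes were covered against 4.81%.

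No paired analysis was possible because the list joins both replicates and holds no value per library, and for the same reason leaving out a replicate was not run. Weak and strong peaks cannot be told apart, since the list holds no heights.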

Other observations

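Of the 14 covered kinase genes, 7 had an annotated start on the other strand within 1000 bp upstream of the covered start (interval 26.8 to 73.2%), as did 57.5% of all 795 covered protein-coding genes. Within the same distance upstream of the 5′-most start, 21 of the 43 kinase genes without a covered start had one (48.8%), against 37.0% of the 13191 protein-coding genes without. The 7 of 14 was thus close to the share of covered genes in general. The 7 starts belonged to Pop4 (396 bp from nmo), RpS19a (480 bp from Rok), hoip (494 bp from Pka-C1), lncRNA:CR41257 (656 bp from rl), asRNA:CR44962 (756 bp from CkIIbeta), RpL8 (916 bp from msn) and CG6788 (955 bp from mnb). Of these pairs, Rok and RpS19a alone shared a peak. Over all 614 peaks at protein-coding starts, 130 held the starts of 2 or more genes.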
